A study of Mus musculus with 8 samples.

Results

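The genes described here are 10 members of the ATF4 stress response and of the serine synthesis pathway that this response controls: Atf4, Ddit3, Trib3, Asns, Chac1, Phgdh, Psat1, Psph, Shmt2 and Mthfd2. They were found by symbol in the table of gene counts, and the list was chosen with earlier results of these data known. The 10 members are among 47706 genes in the table, each member had a single entry whose locus carried no other symbol, and all 10 passed the filter on low counts that left 16736 genes for testing. The samples were RNA-seq libraries of primary calvarial osteoblasts, the bone-forming cells released by collagenase from the skull vaults of newborn mice. The cultures were differentiated for 7 days, starved of serum and then treated for 24 hours with parathyroid hormone, the peptide PTH1–34 (PTH, 4 samples), or with its vehicle (4 samples). The titles of all 8 samples carry the prefix Con, which the labels do not explain. The methods name a C57BL/6 background for the transgenic mice and describe, for deletion of Cpt2 in culture, Cpt2 fl/fl osteoblasts given adenovirus with Cre or GFP, but do not say from which mice the sequenced cultures came. Both groups share the isolation, the differentiation and the serum starvation. The labels call the differentiation adipogenic whereas the study's methods describe an osteogenic medium. Whether the samples of a group came from separate isolations is not given, so the p-values measure the spread between these cultures, which may be technical.

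ATF4 is a transcription factor made when the initiation factor eIF2 is phosphorylated by any of several stress kinases. Phosphorylation slows protein synthesis in general but favors translation of the Atf4 mRNA, so the amount of that mRNA is only part of its control. ATF4 then switches on genes for amino acid uptake and synthesis, among them the chain of Phgdh, Psat1 and Psph that makes serine from a glycolytic intermediate, and Shmt2 and Mthfd2, which carry the one-carbon unit of serine into mitochondrial folate. In osteoblasts ATF4 is known for supporting amino acid import and the synthesis of collagen and osteocalcin.

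ATF4 pairs with C/EBP proteins on a composite element (CARE) with the letters TGATGNAA. The members' promoters were searched for these letters on both strands, in RefSeq windows of the GRCm38.p6 build that run from 250 bases before each start to 50 bases after it. All 10 members were in the promoter table, with 11 windows because Psat1 has a pair of them, and 3 members held a match. Of all 32851 windows, 1304 (3.97%) held it. The matches are shown in capitals, within windows of 30 bases on the strand of each gene, because the 3 genes that share these letters differed in their response to PTH:
Asns: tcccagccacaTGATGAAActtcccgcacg
Chac1: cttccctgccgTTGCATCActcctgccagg
Trib3: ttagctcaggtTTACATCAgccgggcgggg
The Asns window lies at chr6:7693214-7693243, on the minus strand, with the match at positions -23 to -16 from the RefSeq start. The Chac1 window lies at chr2:119351038-119351067, on the plus strand, with a match to the opposite strand at positions -193 to -186 from the start. The Trib3 window lies at chr2:152344028-152344057, on the minus strand, with a match to the opposite strand at positions 14 to 21 past the RefSeq start. The letters TGACGTCA, the full site bound by the cAMP-responsive factor CREB, were in 588 (1.79%) of all windows and in 0 members. Shorter or variant CREB sites were not searched, so whether any overlap the CARE matches is not known. A match is a description of the letters, not a sign that a protein was bound.

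Total counts ranged from 33605610 to 56090654 per sample. Tnfsf11, which encodes the osteoclast cytokine RANKL and is a known target of PTH, served as a check of the labels. It lay between 0.987 and 1.79 counts per 1000000 (CPM) in the vehicle samples and between 115 and 157 CPM in the PTH samples. With edgeR's quasi-likelihood test and Benjamini-Hochberg adjustment, 7669 of the 16736 genes tested (45.8%) passed an adjusted p of 0.05, of which 3907 (23.3% of those tested) rose and 3762 (22.5%) fell. The CPM ranges of the groups did not overlap for 7192 genes (43.0%), and the median log2 fold change of all genes was -8.1e-04. Changes in the members are therefore read against a culture in which nearly as many genes passed the test as did not. The osteoblast markers summed to between 92777 and 105104 CPM in vehicle and between 86744 and 125282 CPM in PTH, and 0 rose, 3 fell (Runx2, Sp7 and Pth1r) and 7 were not called. Of the adipocyte markers, 7 of 8 were tested, 1 fell (Pparg) and their sum was 39.7 to 55.3 CPM in vehicle and 34.8 to 54.9 CPM in PTH. The macrophage markers summed to between 1005 and 1634 CPM in vehicle and between 1576 and 2019 CPM in PTH, with 2 of 10 called higher (Lyz2 and Cd14), a median log2 fold change of 0.33 and none of them at 0, and 9 of 10 were called higher without vehicle replicate 4. Chondrocyte markers summed to 422 to 481 CPM in vehicle and 494 to 622 CPM in PTH (2 of 5 tested rose), and endothelial markers summed to 6.15 to 6.97 CPM in vehicle and 5.66 to 6.97 CPM in PTH (1 of 4 tested rose and 1 fell). Their part in the members' values was not tested, and in bulk RNA fewer cells of a type and less RNA per cell cannot be told apart.

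PTH raised 2 of the 10 members, lowered 3 and left 5 without a call, and 4 members had groups that did not overlap. Those shares are to be set beside the 45.8% of all genes that were called and the 43.0% that did not overlap. The members that rose were the regulators Atf4 and Trib3. The members that fell were the serine synthesis enzymes Phgdh and Psph, together with Chac1, whose call was the least stable. No enzyme was called higher and no regulator was called lower.

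**Figure D1:**
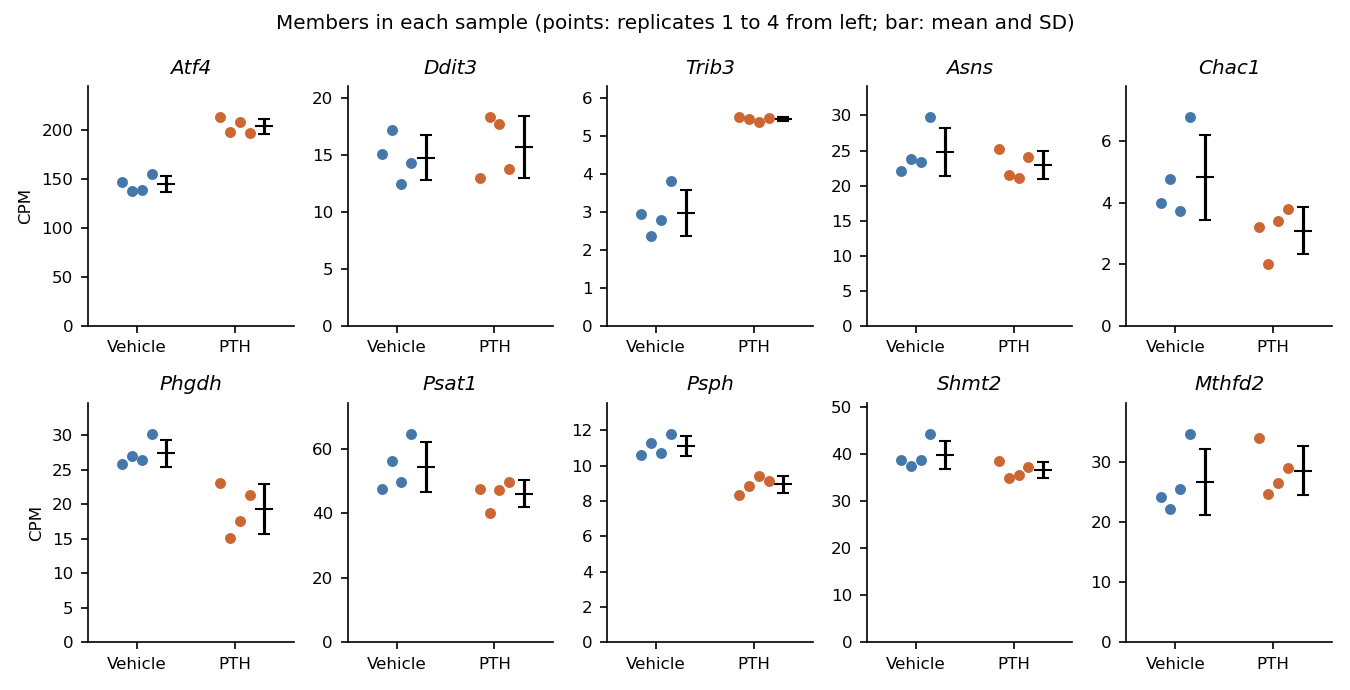
Each panel plots a member's CPM (y axis, from 0) in the vehicle samples (blue) and the PTH samples (orange), with replicates 1 to 4 from left to right and a bar for the mean and SD of 4 samples. The PTH points lie wholly above the vehicle points for Atf4 and Trib3 and wholly below them for Phgdh and Psph, and the groups overlap for the other 6 members.

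Among the stress regulators, Atf4 itself (chr15:80255184-80257541, plus strand, GRCm38) was the most abundant member. It stood at 147.6, 137.9, 139.4 and 155.6 CPM in vehicle replicates 1 to 4 and at 213.3, 198.3, 208.1 and 197.0 CPM in PTH replicates 1 to 4. Every PTH sample lay above every vehicle sample. The mean rose from 145 ± 8.19 to 204 ± 7.87 CPM (SD, n = 4 each), 40.7% higher, with a log2 fold change of 0.49 (SE 0.0640, adjusted p = 5.92e-05). The exact two-sided permutation test over samples gave p = 0.0286, the smallest p that 4 against 4 samples allow. This is a change in mRNA level, and translation of the mRNA was not measured.

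Trib3, a pseudokinase that binds ATF4 and restrains it, was among the scarcest members (chr2:152337422-152344032, minus strand) and was read from 103 to 282 counts per sample. The vehicle samples held 2.95, 2.36, 2.80 and 3.81 CPM and the PTH samples 5.50, 5.45, 5.38 and 5.49 CPM. The groups were well apart, and the coefficient of variation was 1.04% in PTH against 20.3% in vehicle. At 181 to 282 counts per PTH sample, counting noise alone exceeds 1.04%, so this closeness is not read as a tighter level with PTH. The mean rose from 2.98 ± 0.606 to 5.45 ± 0.0567 CPM (SD, n = 4 each), or by 83.1%, with a log2 fold change of 0.87 (SE 0.165, adjusted p = 0.00100, exact permutation p = 0.0286).

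Ddit3, which encodes the factor CHOP that promotes cell death under lasting stress, did not follow Atf4 and Trib3 (chr10:127290774-127296288, plus strand). Vehicle samples held 15.11, 17.22, 12.46 and 14.31 CPM, and PTH samples held 13.03, 18.32, 17.75 and 13.76 CPM. The PTH samples fell into a higher and a lower pair that together spanned nearly the whole vehicle range. The means were 14.8 ± 1.97 and 15.7 ± 2.71 CPM (SD, n = 4 each), and the log2 fold change was 0.087 (SE 0.134, adjusted p = 0.627, exact permutation p = 0.6286). It ranged from 0.011 (without vehicle replicate 3) to 0.17 (without PTH replicate 1) when samples were left out, and its sign turned to -0.025 with upper-quartile normalization and to -0.21 with an offset for transcript length. The annotation holds a pair of overlapping gene models named Ddit3, which the table carries as a single entry, and 68 bases overlap Mars on the opposite strand.

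Asns makes asparagine from aspartate and glutamine and is a widely used readout of ATF4 activity (chr6:7675169-7693254, minus strand). It stood at 22.04, 23.83, 23.43 and 29.73 CPM in vehicle and at 25.22, 21.57, 21.09 and 24.06 CPM in PTH. The groups overlapped, and the highest value of all 8 samples was vehicle replicate 4. The means were 24.8 ± 3.40 and 23.0 ± 1.98 CPM (SD, n = 4 each), and the log2 fold change was -0.11 (SE 0.103, adjusted p = 0.430, exact permutation p = 0.4857). It was -0.0082 without vehicle replicate 4 and -0.16 without vehicle replicate 1, and was not called in either case.

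Chac1, a γ-glutamyl cyclotransferase that breaks down glutathione and is induced by ATF4 and CHOP in stressed cells, passed the all-gene test in the downward direction (chr2:119351229-119354381, plus strand). It was read from 67 to 336 counts per sample. Vehicle samples held 3.99, 4.78, 3.73 and 6.77 CPM and PTH samples 3.20, 2.02, 3.39 and 3.78 CPM, so the groups just overlapped. The mean fell from 4.82 ± 1.38 to 3.10 ± 0.760 CPM (SD, n = 4 each), with a log2 fold change of -0.63 (SE 0.235, adjusted p = 0.0443, exact permutation p = 0.0571). The call was lost without PTH replicate 1 (adjusted p = 0.0596), PTH replicate 2 (0.101), PTH replicate 3 (0.0693), vehicle replicate 2 (0.0782) or vehicle replicate 4 (0.161, where the log2 fold change was -0.42), and without the filter on low counts (0.0584).

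The serine synthesis chain moved downward at its entry and its exit. Phgdh, the dehydrogenase that commits the glycolytic intermediate 3-phosphoglycerate to serine, was at 25.88, 27.02, 26.37 and 30.22 CPM in vehicle and at 23.14, 15.10, 17.51 and 21.35 CPM in PTH (chr3:98313170-98339990, minus strand). Every PTH sample was below every vehicle sample, with PTH replicate 2 the lowest. The mean fell from 27.4 ± 1.95 to 19.3 ± 3.64 CPM (SD, n = 4 each), a difference of -29.6% and a log2 fold change of -0.50 (SE 0.122, adjusted p = 0.00505, exact permutation p = 0.0286). Phgdh shares at least 150 bases at 95% identity or more with 10 other annotated genes, most of them named as pseudogenes or predicted genes, and 5 of these are in the table. Reads could be split among them, and those 5 entries summed to 8.37 to 12.1 CPM in vehicle and 6.32 to 10.1 CPM in PTH. Added to Phgdh they gave 34.2 to 39.2 CPM in vehicle and 21.4 to 30.8 CPM in PTH, which still did not overlap.

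Psat1, the aminotransferase of the middle step, was the most abundant of the 3 enzymes (chr19:15904678-15947337, minus strand). It held 47.50, 56.37, 49.66 and 64.73 CPM in vehicle and 47.64, 40.11, 47.30 and 49.73 CPM in PTH. The groups overlapped, since PTH replicates 1 and 4 exceeded vehicle replicate 1. The means were 54.6 ± 7.76 and 46.2 ± 4.197 CPM (SD, n = 4 each), with a log2 fold change of -0.24 that did not pass the test (SE 0.102, adjusted p = 0.0754, exact permutation p = 0.1429). Psat1 was called lower without vehicle replicate 1 (adjusted p = 0.0437), with upper-quartile normalization (0.0131) and with the offset for transcript length (0.0490). Its log2 fold change was -0.15 without vehicle replicate 4 (adjusted p = 0.249) and -0.17 without PTH replicate 2 (0.203).

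Psph, the phosphatase that releases serine, was the scarcest of the chain (chr5:129765558-129787449, minus strand). Its vehicle samples held 10.60, 11.32, 10.72 and 11.81 CPM, and its PTH samples held 8.35, 8.85, 9.45 and 9.15 CPM. The groups did not overlap and each was tight. The mean fell from 11.1 ± 0.562 to 8.95 ± 0.469 CPM (SD, n = 4 each), a difference of -19.5% and a log2 fold change of -0.31 (SE 0.0928, adjusted p = 0.0155, exact permutation p = 0.0286). A stretch of 452 bases overlaps Cct6a on the opposite strand, and reads from the shared stretch cannot be told apart unless the counting used strand, which is not given. Cct6a, a chaperonin subunit, moved the other way, with 167 to 201 CPM in the PTH samples and 134 to 146 CPM in the vehicle samples (log2 fold change 0.38, adjusted p = 9.1e-04).

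Neither mitochondrial folate enzyme was called. Shmt2, which splits serine into glycine and a one-carbon unit (chr10:127517123-127522444, minus strand), was at 38.71, 37.40, 38.76 and 44.29 CPM in vehicle and at 38.59, 34.84, 35.45 and 37.27 CPM in PTH. Most PTH samples sat under the vehicle samples, but PTH replicate 1 was above vehicle replicate 2. The means were 39.8 ± 3.06 and 36.5 ± 1.71 CPM (SD, n = 4 each), and the log2 fold change was -0.12 (SE 0.0730, adjusted p = 0.193, exact permutation p = 0.0571). With upper-quartile normalization it was called lower (adjusted p = 0.0175), and without vehicle replicate 4 the log2 fold change was -0.070 (0.495).

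Mthfd2, the dehydrogenase and cyclohydrolase that acts on the one-carbon unit next (chr6:83305691-83325908, minus strand), was at 24.19, 22.18, 25.47 and 34.63 CPM in vehicle and at 33.96, 24.64, 26.52 and 28.88 CPM in PTH. The groups overlapped almost fully, with the highest value in vehicle replicate 4. The means were 26.6 ± 5.51 and 28.5 ± 4.03 CPM (SD, n = 4 each), and the log2 fold change was 0.10 (SE 0.139, adjusted p = 0.589, exact permutation p = 0.5429). Without vehicle replicate 4 the log2 fold change was 0.25 (adjusted p = 0.109), without PTH replicate 1 it was 0.0010 (0.996), and with upper-quartile normalization it was -0.015.

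**Figure D2:**
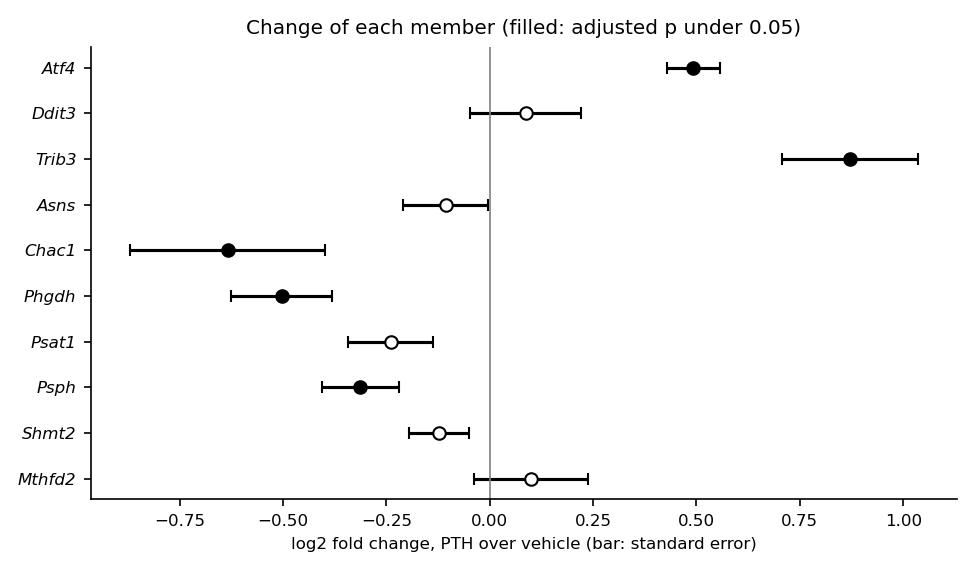
The x axis gives each member's log2 fold change of PTH over vehicle from the edgeR fit. Bars are standard errors derived from the test's F statistic, and filled points passed an adjusted p of 0.05. Trib3 (0.87) and Atf4 (0.49) are filled to the right of 0, Chac1 (-0.63), Phgdh (-0.50) and Psph (-0.31) are filled to the left, and the other 5 are open.

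Levels were compared between members per kilobase of the principal transcript. In vehicle, Atf4 was at 84.1 CPM per kb, far above Psat1 (20.8), Shmt2 (17.4), Ddit3 (16.6), Phgdh (14.5), Mthfd2 (12.8) and Asns (12.3), with Psph (6.41), Chac1 (2.94) and Trib3 (1.47) at the low end. From Psat1 down to Asns each member's vehicle range overlapped that of the next, so that these neighbors did not differ beyond their spread. The steps from Atf4 to Psat1, Asns to Psph, Psph to Chac1 and Chac1 to Trib3 did not overlap. With PTH the order of the lowest pair changed: Trib3 was at 2.65 to 2.72 CPM per kb and Chac1 at 1.23 to 2.31 CPM per kb, and Atf4 reached a mean of 118 CPM per kb.

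The members also varied together within the vehicle group. Vehicle replicate 4 was the highest vehicle sample for 9 of the 10 members, all but Ddit3, whereas it was the highest for 25.4% of all genes tested. Its median deviation from the other vehicle samples was 0.28 on the log2 scale over the members and -0.0079 over all genes. Mthfd2, Chac1, Trib3 and Asns were those farthest above the vehicle mean in that sample, and the markers of osteoblasts and of macrophages moved with them: 10 of 10 osteoblast markers and 10 of 10 macrophage markers were highest in that sample among the vehicle samples (sums of 105104 and 1634 CPM, against 92777 to 101082 and 1005 to 1220 CPM in the others). Of the chondrocyte markers 0 were. The part of these cells in the members' values was not tested. Of the PTH samples, replicate 1 had the most counts and was the highest for 6 members, against 29.9% of all genes tested. PTH replicate 2 had the fewest counts and was the lowest for 5 members, a share not taken over all genes. It was the highest for 1 member, against 32.2% of all genes. The part of depth in this was not tested. Without vehicle replicate 4, Atf4 (log2 fold change 0.52, adjusted p = 1.9e-04), Trib3 (1.01, 4.4e-04), Phgdh (-0.45, 0.0200) and Psph (-0.29, 0.0428) were still called, and Chac1 was not.

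**Figure D3:**
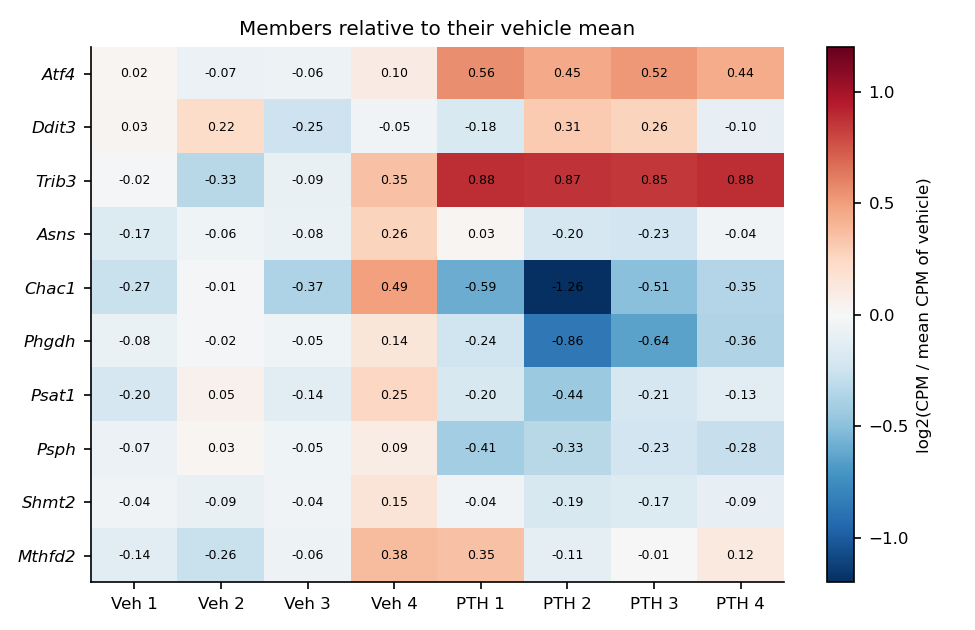
Each cell gives the log2 ratio of a member's CPM in a sample (columns, vehicle then PTH) to the member's mean CPM in vehicle, red above and blue below it. The row of Trib3 is near 0.87 in all PTH samples, while vehicle replicate 4 is above 0 for 9 members, up to 0.49 for Chac1.

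Several members have a paralog that does the same step elsewhere or without the same control, and the log2 ratio of member to paralog in each sample tested whether the pair changed unequally. With 4 against 4 samples a single ratio at the smallest p has an adjusted p of 0.200, and at least 5 of the 7 would have to reach it together to pass. The adjusted values, of which none passed, therefore do not show that a pair changed alike. Trib3 over Trib1, another pseudokinase of the family, was the only pair without overlap between the groups: it ran from -1.31 to -1.07 in vehicle and from -1.997 to -1.78 in PTH, a difference of -0.70 (exact permutation p = 0.0286, adjusted p = 0.200). Trib1 rose from 6.98 ± 0.992 to 20.8 ± 1.37 CPM (SD, n = 4 each; log2 fold change 1.57, adjusted p = 2.7e-07) and Trib2 from 62.9 ± 2.86 to 150 ± 20.7 CPM (1.26, 3.8e-07), so all 3 Tribbles genes were called higher. The difference for Trib3 over Trib2 was -0.37 (exact permutation p = 0.1143, adjusted p = 0.250), or -0.25 without vehicle replicate 4.

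Atf5, the factor closest to Atf4, rose by 0.46 (log2 fold change, adjusted p = 0.0015), and the ratio of Atf4 to Atf5 differed by 0.046 (exact permutation p = 0.6571, adjusted p = 0.767). Chac2, the paralog of Chac1 without stress control, fell (log2 fold change -0.57, adjusted p = 0.0331), and the ratio of Chac1 to it differed by -0.047 (exact permutation p = 0.9143). Shmt1, the cytosolic form of Shmt2, was called lower at -0.88 (adjusted p = 0.0306), whereas Shmt2 was not called. The ratio of Shmt2 to Shmt1 was 3.10 to 3.64 in vehicle and 3.59 to 5.21 in PTH, a difference of 0.87 (exact permutation p = 0.0571, adjusted p = 0.200) that was 0.54 without PTH replicate 2. The call of Chac2 was lost without PTH replicate 1 (adjusted p = 0.0758), PTH replicate 4 (0.0768) or vehicle replicate 4 (0.0932), and that of Shmt1 without PTH replicate 4 (0.0753) or vehicle replicates 1, 2 or 3 (0.0548, 0.0541 and 0.0830). Mthfd2l, the second mitochondrial form of Mthfd2, rose by 0.37 (adjusted p = 0.0171), Mthfd1l, which completes the mitochondrial branch to formate, rose by 0.88 (2.2e-04), and cytosolic Mthfd1 was not called (-0.19, 0.156). The ratios of Mthfd2 to Mthfd1 and to Mthfd2l differed by 0.31 and -0.25 (exact permutation p = 0.1429 and 0.3143, adjusted p = 0.250 and 0.440), the second being -0.11 without PTH replicate 2 and -0.13 without vehicle replicate 4. With upper-quartile normalization Mthfd2l was not called (0.25, adjusted p = 0.0795) and Mthfd1 was called lower (-0.30, 0.0256).

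**Figure D4:**
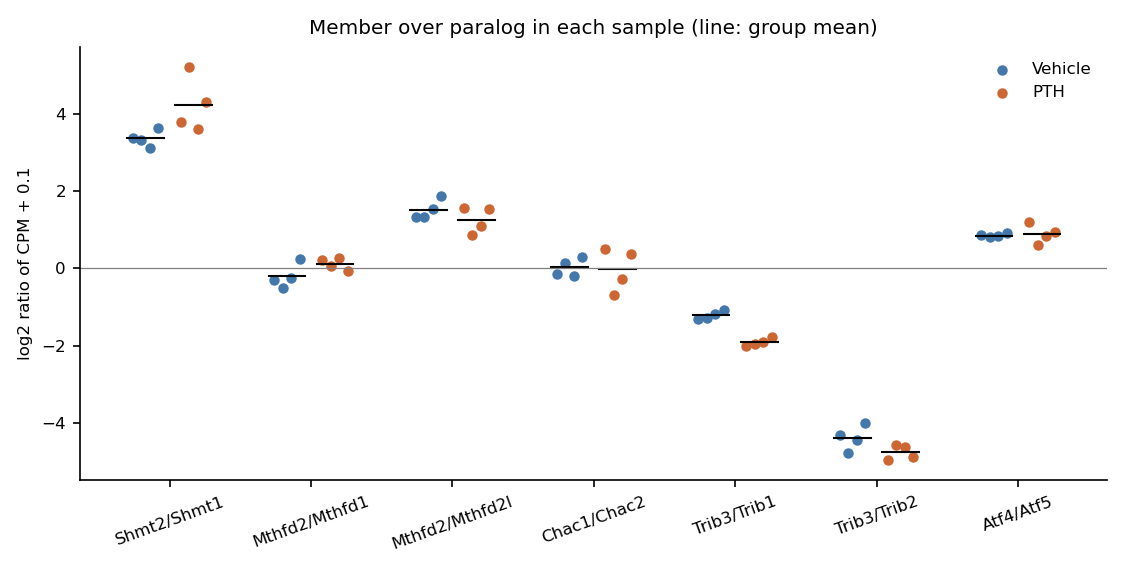
The y axis gives the log2 ratio of a member to its paralog (CPM with a pseudocount of 0.1) in each vehicle (blue) and PTH (orange) sample, with a line at each group mean. Only Trib3/Trib1 has groups that do not overlap (-1.31 to -1.07 against -1.997 to -1.78), and the Shmt2/Shmt1 points reach 5.21 in PTH replicate 2.

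Upstream of the members, the machinery of the integrated stress response was called about as often as genes at large. Of 17 tested genes of 18 listed, 5 rose (29.4%, against 23.3% of all genes), 3 fell (17.6%, against 22.5%) and 9 were not called, with a median log2 fold change of 0.038 against -8.1e-04 over all genes. None of the 4 kinases that phosphorylate eIF2 was called higher. Eif2ak3 (PERK, the sensor of the endoplasmic reticulum) was at 52.0 CPM against 79.0 CPM in vehicle (log2 fold change -0.60, adjusted p = 1.2e-04) and Eif2ak4 (GCN2, the sensor of amino acid lack) at 15.1 against 23.0 CPM (-0.61, 8.0e-05), and both were called lower. Eif2ak1 and Eif2ak2, the sensors of heme lack and of double-stranded RNA, were not called (-0.15 and 0.083, adjusted p = 0.0844 and 0.565), although Eif2ak1 was called lower with upper-quartile normalization (-0.27, 0.0052) and without PTH replicate 1 (-0.21, 0.0182). Ppp1r15a, which recruits the phosphatase that reverses the phosphorylation and is itself a target of the pathway, rose from 16.3 ± 1.51 to 83.4 ± 4.69 CPM (SD, n = 4 each; 2.36, 4.3e-10). Its constitutive partner Ppp1r15b rose less (0.42, 4.9e-04), and Eif2s3x, the most abundant gene of this list, was not called (0.028, 0.812). Of the 14 genes of this list in the promoter table, 1 held the CREB letters TGACGTCA (Ppp1r15a) and 1 the CARE letters (Eif2s3x). The part of these letters in the genes' values was not tested.

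Other targets of ATF4 were also divided. Of 26, 12 rose (46.2%, against 23.3% of all genes), 7 fell (26.9%, against 22.5%) and 7 were not called, with a median log2 fold change of 0.28. Fgf21, a stress hormone, had the largest rise. Its mean went from 0.0969 CPM in vehicle (3 to 7 counts per sample) to 4.26 CPM with PTH (109 to 223 counts). Its log2 fold change was 5.42 (adjusted p = 4.3e-08), and Gdf15, another such hormone, rose by 0.79 (3.4e-04). Cebpb, a C/EBP partner of ATF4, rose from 38.9 ± 1.496 to 391 ± 38.1 CPM (3.33, 2.8e-11), while its relative Cebpg stayed at 33.96 and 34.12 CPM and was not called (0.0049, 0.972). Slc7a11, the cystine carrier, rose by 0.91 (adjusted p = 0.0016) and Cdkn1a, the cell cycle inhibitor p21, by 0.78 (9.3e-06). In the other direction, Sesn2, which restrains mTORC1, fell (-0.48, 1.7e-04), and Bbc3, which encodes the death protein PUMA, had the largest fall (-1.67, 2.6e-07). Of the 23 targets in the promoter table, 9 held the CARE letters, and of these 4 rose, 3 fell and 2 were not called. The targets without the letters were not counted apart. Of the 3 members with a match, Trib3 rose, Chac1 fell and Asns was not called.

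The amino acid carriers under ATF4 had the highest median of the pathway lists (0.58). Of 9, 5 rose (55.6%, against 23.3% of all genes), 1 fell (11.1%, against 22.5%) and 3 were not called. Slc7a5, the leucine carrier, reached 108 CPM against 35.8 CPM in vehicle (log2 fold change 1.597, adjusted p = 5.8e-07), Slc38a2, the most abundant, by 0.17 (0.0452), and Slc1a5 was the carrier that fell (-0.16, 0.0350). Slc38a2 lost its call without any of 7 samples, all but PTH replicate 2 (adjusted p of 0.0556 to 0.163), and Slc1a5 without any of 6, all but PTH replicate 2 and vehicle replicate 4 (0.0519 to 0.103). The cytosolic aminoacyl-tRNA synthetases, which load tRNAs and include many ATF4 targets, had a median of -0.11. Of 20, 2 rose (10%, against 23.3% of all genes), 6 fell (30%, against 22.5%) and 12 were not called. Without PTH replicate 1, 3 or 4 or vehicle replicate 1, 2 or 3, 1 rose. Eprs was far apart from the rest of this list, rising from 172 ± 11.2 to 942 ± 29.7 CPM (2.45, 1.3e-10), and Vars had the largest fall (-0.45, 3.0e-04). Of 13 synthetase genes in the promoter table, 5 held the CARE letters, and of these 1 rose, 2 fell and 2 were not called.

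Around the serine and folate enzymes, about as many genes rose as fell, as among all genes (23.3% and 22.5%). Of 23 folate one-carbon genes tested of 24 listed, 7 rose and 7 fell (30.4% each; 6 and 10 with upper-quartile normalization), with a median log2 fold change of 0.0032. Gldc, the glycine decarboxylase, had the largest rise, from 0.426 to 1.25 CPM (1.55, adjusted p = 0.0034), its partner subunit Dld was the most abundant (0.41, 3.0e-04), and Shmt1 had the largest fall. Of 20 tested genes of 22 for serine and glycine use and transport, 5 rose and 4 fell (25% and 20%; 4 and 6 with upper-quartile normalization), with a median of -0.018. Without PTH replicate 3 or 4 or vehicle replicate 2, 2 fell. Alas1, which uses glycine for heme, rose from 48.5 to 240 CPM (2.31, 2.4e-10), Sfxn1, the mitochondrial serine carrier, fell (-0.46, 0.0020), and Serinc3, the most abundant, was not called (0.077, 0.493).

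Of 14 genes of proline, glutamine and asparagine metabolism, the group around Asns, 5 rose (35.7%, against 23.3% of all genes). In this list 1 fell (7.1%, against 22.5%), or 3 without PTH replicate 1, and the median was -0.063. Got1, the cytosolic aspartate aminotransferase, rose from 17.4 to 119 CPM (2.78, adjusted p = 4.3e-10), Asrgl1, an asparaginase, fell (-0.53, 0.0013), and Oat, the most abundant, was not called (-0.011, 0.922). Of 18 other genes of the unfolded protein response, 5 rose (27.8%, near the 23.3% of all genes), 0 fell (against 22.5%) and 13 were not called. Their median was 0.062. Without PTH replicate 1 or 4 or vehicle replicate 1, 2 or 3, 3 rose, and without PTH replicate 1, 2 fell. The largest rise among them was that of Manf, a secreted protein of the endoplasmic reticulum (0.35, 7.4e-04), and the most abundant, the chaperone gene Calr, was not called (0.10, 0.382).

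**Figure D5:**
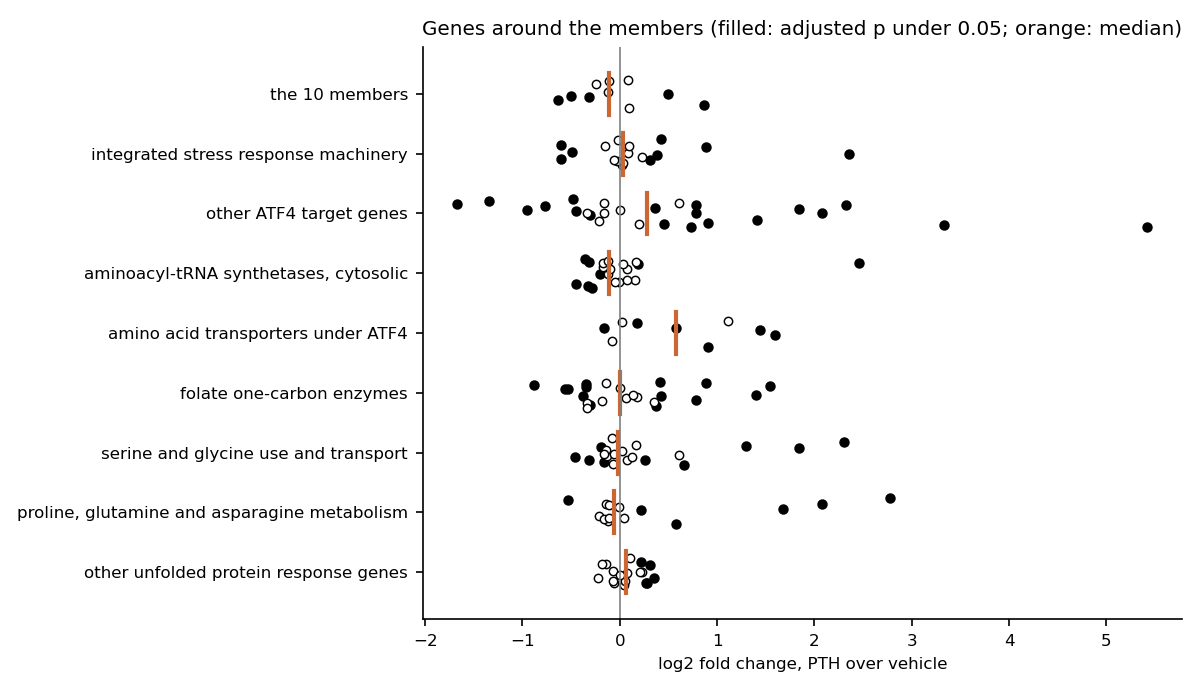
Each point is a gene, placed by its log2 fold change of PTH over vehicle (x axis), in the lists named on the y axis, filled where adjusted p was under 0.05, with the list's median as an orange bar. The medians run from -0.11 for the members and the tRNA synthetases to 0.58 for the amino acid carriers. The single points farthest right include Fgf21 (5.42), Cebpb (3.33), Got1 (2.78) and Eprs (2.45).

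The genes with profiles most like Atf4 were not other members. By the root mean square difference in log2 CPM over the 8 samples, each gene centered on its own mean, the nearest were Pcna (0.0347), Pwp2 (0.0447) and Ninj1 (0.0448), and the nearest member, Trib3, stood at rank 3250 of the genes tested. Nearest to Phgdh were Antxr2 (0.0533), Pard6g (0.0644) and Rpa1 (0.0720, at a locus that carries another symbol too). The members nearest to Phgdh were its pathway neighbors Psat1 and Psph, at ranks 1159 and 1971. These distances describe 8 samples of 2 groups and carry no test.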

How the data were processed

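Poly(A) RNA from 8 cultures was sequenced with paired reads. Per the study's methods and the submitters' processing notes, the authors used HISAT2 for alignment to GRCm38 and StringTie for transcript assembly, derived gene counts with its companion script and tested them with DESeq2. Versions, the annotation, the read length set in that script and the use of strand are not given in the sources used here. The authors deposited whole-number counts per gene, not normalized; such counts are derived from transcript coverage, so a wrong read length would scale all of them alike.

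Samples were grouped by their titles. The counts were fitted with edgeR 4.0.16 (R 4.3.3): low counts removed by filterByExpr (at least 10 in a sample, 15 in total), TMM normalization, glmQLFit and glmQLFTest, all 8 samples and treatment only, with Benjamini-Hochberg adjustment over 16736 genes and a threshold of 0.05. The standard error (SE) of a log2 fold change was its absolute value divided by the square root of the test's F statistic. CPM are per 1000000 counts of the genes tested, TMM-scaled. A single value was tested by an exact two-sided permutation test over 70 assignments of samples on log2(CPM + 0.1), with SciPy 1.17.1. On simulated counts for these 16736 genes, edgeR recovered 171 of 200 changed genes with 9 false calls. Only those 200 genes were changed, each by more than any called member. This recovery therefore does not carry over to changes of the members' size. DESeq2 1.42.0, other scalings and filters, halved counts, a length offset, a replicate block and leaving out each sample were the alternatives. The table also had 2 entries without a symbol, which stayed in the input of the fit but could not be matched to a member or a list.

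Positions and transcript lengths came from GENCODE M21 and sequence sharing from blastn 2.17.0. The members and gene lists were chosen with earlier results of these data known. Named beyond the members were, in each list, the called genes with the largest rise and fall and the most abundant gene, the members' paralogs, the eIF2 kinases and a few set targets, and for Atf4 and Phgdh the 3 genes of nearest profile. Cct6a and the marker genes named were chosen after their values were seen. Counting precision rests on depths of 33605610 to 56090654 counts per sample.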

Additional observations from a re-analysis of the deposited data

Results flagged for a closer look

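In groups of 4 samples, a single value lay apart from the other 3 by Dixon's test at the 95% level in 7 of the 112 groups examined, and chance gives about 1 in 20. None of the 7 concerned a member. In vehicle replicate 4, Chac2 was at 5.54 CPM (4.29 to 4.40 in the others), Asrgl1 at 10.97 CPM (11.9 to 12.1) and Oat at 263 CPM (274 to 275). In vehicle replicate 1, Sfxn1 was at 44.1 CPM (51.3 to 51.9) and Eif2s3x at 145.9 CPM (153 to 154). In PTH replicate 2, Dld was at 81.2 CPM (92.5 to 94.4). In PTH replicate 1, Tnfsf11 was at 157 CPM (115 to 120).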

How the results depend on the processing

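Atf4 (log2 fold change 0.38 to 0.52), Trib3 (0.76 to 1.01), Phgdh (-0.62 to -0.39) and Psph (-0.43 to -0.28) were called in the same direction under all 16 alternatives, Chac1 (-0.75 to -0.42) under 10, Psat1 under 3, Shmt2 under 1, and Asns, Ddit3 and Mthfd2 under 0. Upper-quartile normalization shifted all log2 fold changes by -0.11 at the median, so that 3054 genes rose and 5216 fell (36.9% of calls higher, against 50.9%). It called 5 members lower and turned Ddit3 (-0.025), Mthfd2 (-0.015), Calr (-0.013), Cebpg (-0.11), Eif2ak2 (-0.029), Eif2s3x (-0.086) and Serinc3 (-0.036) below 0. It called 10 tRNA synthetases, 5 stress response genes, 6 genes of the proline list and 3 of the unfolded protein response lower. The offset for transcript length gave 3141 higher and 4391 lower (41.7% higher), with Ddit3 at -0.21 and Cebpg at -0.011. Without the filter on low counts, Cebpg was at -0.034 and Eif2s3x at -0.0061, and DESeq2 put Cebpg at -0.0026. DESeq2 called 7893 genes. With a pseudocount of 1, Trib3 over Trib2 differed by -0.52 (exact permutation p = 0.0286).

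Leaving out single samples gave 6671 to 8074 called genes, with 2 members higher and 2 to 4 lower. The ratio differences ranged from -0.22 to 0.17 for Chac1 over Chac2, -0.055 to 0.14 for Atf4 over Atf5 and -0.51 to -0.25 for Trib3 over Trib2, and the log2 fold changes from -0.069 to 0.084 for Cebpg, -0.0025 to 0.18 for Eif2ak2, -0.049 to 0.10 for Eif2s3x and -0.088 to 0.054 for Oat. Without PTH replicate 2, Cebpg was at -0.069 and Oat at 0.054.

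Same-numbered samples did not deviate together (correlations of -0.0409 to 0.0274, with 0 of 4 PTH samples closest to their own number). No pairing by number was therefore seen. A weak pairing could be missed, and the labels do not say how the numbers were given. A fit with the number as a block called 7003 genes (3571 higher, 3432 lower), the same 2 members higher and 3 lower, and put Cebpg at -0.0043. It called 2 in place of 4 serine and glycine genes lower and 4 in place of 2 macrophage markers higher, 1 in place of 2 tRNA synthetases higher, and 0 in place of 1 carrier and 1 endothelial marker lower. Slc1a5 (adjusted p = 0.0853) and Slc38a2 (0.121) lost their calls in it. The cause of these shifts was not tested. Chac1 and Trib3 had the fewest counts, at most 336 and 282 in a sample, and kept their calls with all counts halved. Halving keeps the ratios between samples and adds no counting noise, so it does not test how these calls would fare at lower depth.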
